A study of Mus musculus with 69 samples.

Results

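The expression of 8 genes, Cd274, Pdcd1lg2, Cd80, Cd86, Cd83, Cd40, Icosl and Havcr2, was examined in mouse bone marrow–derived macrophages (BMDMs) with and without interleukin-4 (IL-4). The genes were chosen by symbol, as the ligands of the receptor PD-1 and the costimulatory molecules of antigen-presenting cells, and they are 8 of the 24537 genes in the RNA-seq table of 5 strains. That table holds macrophages of 5 inbred strains, which are C57BL/6J (C57), BALB/cJ (BALB), SPRET/EiJ (SPRET), PWK/PhJ (PWK) and NOD/ShiLtJ (NOD), untreated or given 20 ng/ml IL-4 for 24 hours. Each group had 3 libraries, except for basal PWK with 2. Another table is a time course of C57 and SPRET cells, either basal or given IL-4 for 1, 6 or 24 hours. A separate table follows Egr2 fl/fl BMDMs (Egr2WT) and LyzM-Cre Egr2 fl/fl BMDMs (Egr2MKO) at the same times. The last 2 tables give separate values for the 2 alleles in F1 BMDMs of C57 crossed with SPRET or NOD, either basal or given IL-4 for 24 hours. In these 4 tables every group had 2 libraries. The study used female mice of 8 to 12 weeks, and bone marrow was cultured in M-CSF before treatment. In Egr2MKO, Cre is driven by the lysozyme M gene, so that deletion takes place in myeloid cells and depends on how completely Cre acts, and the Egr2WT controls carry the same floxed alleles without Cre. The labels number the libraries and do not tie them to single animals, so the p-values measure the spread between libraries.

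T cells read 2 kinds of signal from an antigen-presenting cell, the antigen itself and the molecules shown beside it. CD80 and CD86 (B7-1 and B7-2) engage CD28 to promote and CTLA-4 to restrain activation, and ICOS ligand (Icosl) engages ICOS. PD-L1 (Cd274) and PD-L2 (Pdcd1lg2) engage PD-1 and dampen T cell responses. PD-L1 is found on many cell types, whereas PD-L2 is known from dendritic cells and macrophages and as a target of IL-4 and STAT6. CD40 is the TNF receptor family member through which T cell CD40 ligand activates macrophages. CD83 is a surface marker of mature dendritic cells that limits the loss of MHC class II and CD86 from the surface. TIM-3 (Havcr2) is an inhibitory receptor of T cells that macrophages and dendritic cells also carry.

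The 2 PD-1 ligand genes are neighbours on chromosome 19 (mm10). Cd274 lies at chr19:29367438-29388094 and Pdcd1lg2 at chr19:29410919-29472927, both on the plus strand, with 22.8 kb between the end of the first and the start of the second. The other genes are Cd80 at chr16:38458933-38486932, Cd86 at chr16:36603869-36666077 on the minus strand, Cd83 at chr13:43785112-43803133, Cd40 at chr2:165055636-165071654, Icosl at chr10:78069368-78079525 and Havcr2 at chr11:46454931-46481254. The 250 bases before the transcript start of Pdcd1lg2 and Cd274 are printed because the comparison of the PD-1 ligands is between these neighbours. They were taken from RefSeq on GRCm38.p6, which has the mm10 coordinates, at chr19:29410669-29410918 and chr19:29367188-29367437, on the plus strand and 5′ to 3′. Capitals mark a TTC and a GAA spaced by 4 bases, the spacing preferred by STAT6.
Pdcd1lg2: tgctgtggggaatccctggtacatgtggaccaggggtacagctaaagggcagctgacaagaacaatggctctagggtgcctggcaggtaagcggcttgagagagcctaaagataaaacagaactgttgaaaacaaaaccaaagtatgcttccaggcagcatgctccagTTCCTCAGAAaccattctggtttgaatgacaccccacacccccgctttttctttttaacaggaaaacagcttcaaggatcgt
Cd274: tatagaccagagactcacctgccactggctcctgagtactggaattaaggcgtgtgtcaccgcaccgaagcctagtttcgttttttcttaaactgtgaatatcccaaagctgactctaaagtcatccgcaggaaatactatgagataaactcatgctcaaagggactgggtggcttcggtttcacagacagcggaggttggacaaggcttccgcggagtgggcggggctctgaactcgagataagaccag
The match in Pdcd1lg2 begins 82 bases before the start. Windows of the same kind were given for 5 of the 8 genes (Cd274, Pdcd1lg2, Cd80, Icosl and Havcr2), and 4 motifs were searched on both strands. TTCNNNNGAA occurred in Pdcd1lg2 and in 5.85% of all 32851 promoter windows. TTCNNNGAA, in 7.02% of all windows, and GCGTGGG, the EGR motif, in 4.30%, had no match in the 5 genes. GGAAGT, a core of PU.1 sites, was in 19.7% of all windows and had 2 matches in Havcr2. A match describes letters in this window of the reference genome and was not tested for binding or for strain variants.

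All libraries expressed macrophage genes. The summed level of 8 macrophage markers, led by Lyz2, was between 11020 and 54480 TPM in the 3 TPM tables, and all 8 markers reached 1 TPM in each. The summed levels of B cell (5 genes) and T cell (4 of 5 listed genes) markers stayed at or below 6.60 and 3.35 TPM. Those of 8 dendritic cell markers lay between 2.51 and 46.2 TPM, with Batf3 up to 38.9 TPM, and were higher after IL-4, with 4.81 to 5.71 TPM in basal C57 and between 23.7 and 28.0 TPM after 24 hours. PWK stood apart for 4 fibroblast markers, led by Dcn, at 202 to 210 TPM in basal and 105 to 112 TPM in IL-4 libraries, against at most 16.7 TPM in the other strains. Neutrophil markers (5 genes) reached 533 to 590 TPM in PWK, 244 to 395 TPM in SPRET and at most 130 TPM in the other strains of that table. In C57 they were lower after 24 hours of IL-4, at 16.3 to 24.0 TPM from 106 to 130 TPM, and at 6.20 to 7.52 TPM from 66.2 to 93.5 TPM in the time course. They were also lower in Egr2MKO than in Egr2WT at each of the 4 times (17.9 to 22.9 against 43.2 to 53.5 TPM at 6 hours), as was the macrophage sum (15905 to 16523 against 19983 to 20269 TPM at 6 hours). That sum was led by Lyz2, at up to 22023 TPM among the Egr2WT and Egr2MKO libraries. Lyz2 is the lysozyme M gene that drives Cre in Egr2MKO, so the lower sum is not read as fewer macrophages. In the time course the basophil and mast cell markers (4 genes) summed to 10.8 to 22.2 TPM in SPRET and at most 0.582 TPM in C57. The part of such cells in the results was not tested, and in bulk RNA fewer cells of a type cannot be told apart from less RNA per cell. Library size was between 4.69 and 32.9 megatags in the 3 TPM tables (the depth behind the F1 values is unknown), so that values under 1 TPM rest on few reads.

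Under basal conditions, Cd274, Cd86 and Cd40 followed nearly the same order of strains, highest in NOD and PWK and lowest in SPRET, whereas Havcr2 was highest in SPRET and lowest in NOD. Cd274 was at 238, 261 and 254 TPM in the NOD libraries and at 169 and 167 TPM in PWK. In BALB, Cd274 was at 109, 97.8 and 95.4 TPM, and in C57 at 76.7, 96.2 and 70.2 TPM. The SPRET libraries held 19.2, 20.0 and 18.6 TPM, far below those of any other strain. Each neighbour in this order differed (limma, adjusted p from 3.4e-17 to 0.0022). The smallest step was BALB over C57, where 1 C57 library fell among those of BALB. That step was a log2 difference of 0.32 ± 0.08 (SE, adjusted p = 0.00218), and its adjusted p was 0.0926 in a model of these groups alone.

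Cd40, the receptor for T cell help, spanned the widest range. It was at 97.6 ± 4.25 TPM (SD, n = 3) in NOD and at 0.575 ± 0.0793 TPM in SPRET. Between these, PWK held 39.6 TPM (n = 2), BALB 25.8 ± 0.148 TPM and C57 12.3 ± 2.56 TPM, and no library of one strain overlapped with those of another. Cd86 was at 19.5 ± 1.26 TPM in NOD, 9.69 TPM in PWK, 6.51 ± 0.498 TPM in C57 and 3.34 ± 0.203 TPM in BALB. In SPRET, Cd86 was at 0.219, 0.269 and 0.260 TPM, under the level of 1 TPM used for the filter. All neighbours in the orders of Cd40 and Cd86 differed (limma, adjusted p between 6.7e-19 and 0.00011). Over the 10 group means of log2(TPM + 1), Pearson's r was 0.96 between Cd274 and Cd40, 0.93 between Cd274 and Cd86 and 0.92 between Cd86 and Cd40. Havcr2 and Cd40 had r = -0.83. These are descriptions over 10 means in which basal and IL-4 groups of a strain share their strain.

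Cd80, the other B7 molecule, had a different order from Cd86. SPRET held 6.56 ± 0.730 TPM, followed by C57 with 5.36 ± 1.10 TPM and BALB with 4.52 ± 0.408 TPM, and these neighbours did not differ beyond their spread (adjusted p = 0.062 and 0.22). Between SPRET and BALB the difference had an adjusted p under 0.05 (limma). NOD, with the highest Cd86, had 1.75 ± 0.175 TPM of Cd80. PWK had 0.249 and 0.145 TPM and so scarcely any Cd80 transcript. Havcr2 was at 53.5 ± 2.03 TPM in SPRET, 11.5 ± 0.388 TPM in C57 and 4.61 ± 0.198 TPM in NOD, with PWK at 6.14 TPM and BALB at 6.13 ± 1.13 TPM. Its levels in PWK and BALB did not differ (adjusted p = 0.95). Cd83 was highest in NOD, at 31.4 ± 1.26 TPM, and lowest in C57, at 4.42 ± 0.391 TPM, with BALB at 16.0, PWK at 9.74 and SPRET at 6.81 TPM between them. Pdcd1lg2 was low in all strains, from 0.110 TPM in PWK to 0.966 ± 0.0943 TPM in SPRET, and SPRET differed from the next strain (adjusted p = 0.00028). Icosl lay between 1.41 ± 0.408 TPM in SPRET and 3.82 TPM in PWK, and in its order only the step from BALB to NOD passed the test.

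**Figure D1:**
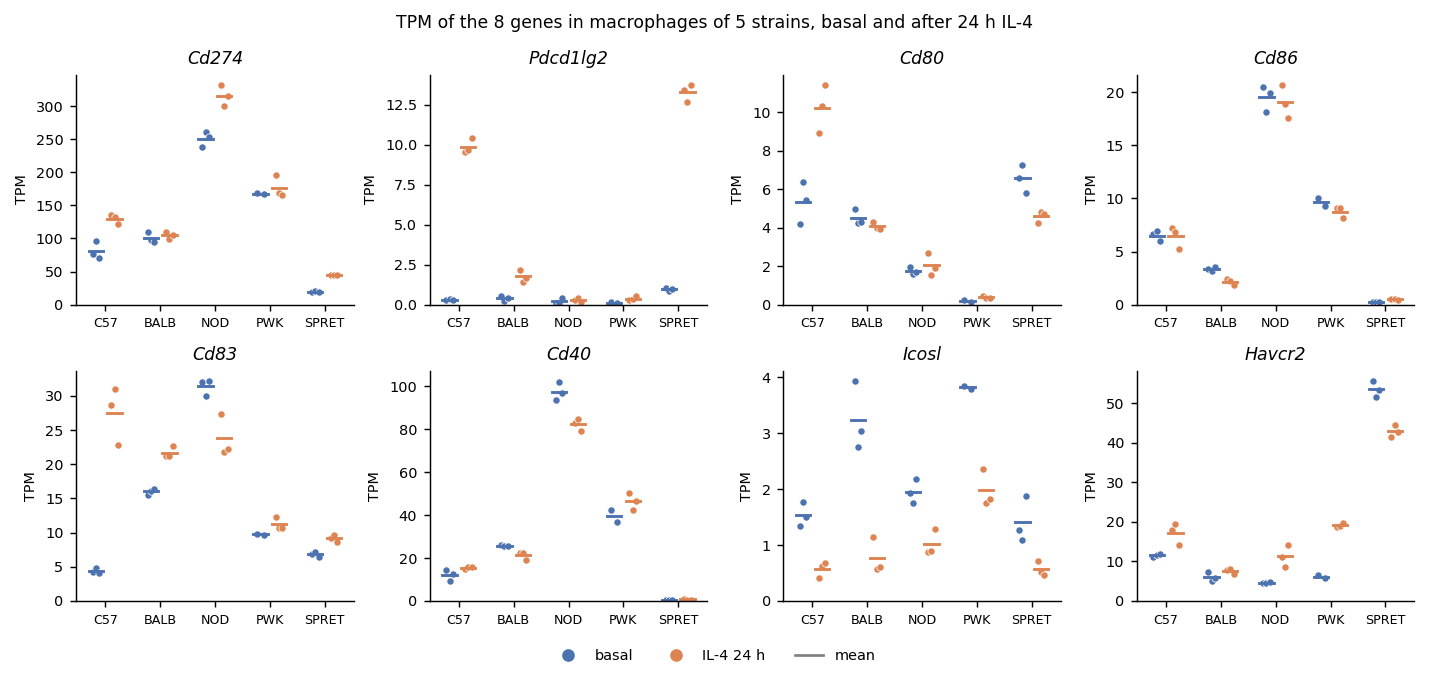
TPM of each gene (y axis, starting at 0) in the 5 strains (x axis). Points are libraries, blue for basal and orange for 24 hours of IL-4, and bars are means. Cd274, Cd86 and Cd40 are highest in NOD and lowest in SPRET, Havcr2 is highest in SPRET, and Pdcd1lg2 rises in C57 and SPRET to 9.87 and 13.3 TPM.

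Compared with C57, and counting changes beyond 2-fold with an adjusted p under 0.05 as called, 2 of the 8 genes were called in BALB (Cd40 and Cd83, both higher) against 4.81% of all genes tested. In NOD, 6 were called, Cd274, Cd86, Cd83 and Cd40 higher and Cd80 and Havcr2 lower, against 16.9% of all genes. In PWK, Cd274 and Cd40 were higher and Cd80 lower, against 13.3% of all genes. In SPRET, Havcr2 was higher and Cd274, Cd86 and Cd40 lower, against 18.1% of all genes. The median log2 difference of all genes was -0.30 in NOD, so that the 4 higher genes stood above a lowered median.

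After 24 hours of IL-4 both PD-1 ligand genes rose in C57 and SPRET, Cd83 rose beyond 2-fold in C57 alone among the 5 strains and fell in NOD, Havcr2 rose beyond 2-fold in NOD and PWK, and Icosl fell in all 5. Pdcd1lg2 went from 0.310, 0.343 and 0.291 TPM to 9.57, 9.65 and 10.4 TPM in C57. In SPRET it went from 1.04, 0.859 and 1.00 TPM to 13.4, 12.7 and 13.7 TPM. The groups were far apart in both strains, with log2 fold changes of 3.05 ± 0.11 (SE; limma, adjusted p = 1.4e-17) in C57 and 2.86 ± 0.11 (adjusted p = 3.9e-17) in SPRET. BALB reached 2.14, 1.44 and 1.69 TPM from 0.554, 0.254 and 0.403 TPM, a log2 fold change of 0.97 ± 0.11 (adjusted p = 1.2e-07). In NOD, the IL-4 libraries held 0.276, 0.430 and 0.130 TPM and the basal libraries 0.093, 0.124 and 0.394 TPM. PWK held 0.261, 0.353 and 0.518 TPM after 0.148 and 0.072 TPM. Neither passed the test (adjusted p = 0.56 in NOD and 0.066 in PWK). Fold changes on the log2(TPM + 1) scale understate the change of genes near 0.

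Cd274 rose in SPRET from a mean of 19.3 to 44.8 TPM, with 45.1, 45.2 and 44.2 TPM in the IL-4 libraries (log2 fold change 1.18 ± 0.08, adjusted p = 7.8e-12). In C57 it rose to 136, 132 and 122 TPM, by 0.69 ± 0.08 (adjusted p = 1.8e-07). NOD, with the highest level, went to 332, 300.5 and 315 TPM, by 0.33 ± 0.08 (adjusted p = 0.0028), where the median of all genes was 0.12. After median-ratio scaling of the libraries this value was 0.14 with an adjusted p of 0.092. In BALB and PWK, Cd274 had log2 fold changes of 0.06 and 0.07, and basal and IL-4 libraries overlapped. The order of the strains after IL-4 was NOD, PWK, C57, BALB and SPRET, with C57 now above BALB and each neighbour different (adjusted p between 1e-12 and 0.0034).

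Cd83 rose in C57 from 4.26, 4.86 and 4.13 TPM to 28.7, 31.0 and 22.9 TPM, a log2 fold change of 2.39 ± 0.09 (adjusted p = 4.6e-17). C57 thus went from the lowest of the 5 levels to a mean of 27.5 TPM, which was not different from that of NOD (23.8 TPM, adjusted p = 0.056). In NOD, Cd83 fell from 32.1, 30.0 and 32.3 TPM to 27.3, 21.8 and 22.2 TPM, by 0.39 ± 0.09 on the log2 scale (adjusted p = 0.0016). BALB and SPRET gained 0.42 and 0.38 (adjusted p = 0.0009 and 0.0012), and PWK held 0.19 (adjusted p = 0.19). Cd40 rose in C57 by 0.33 ± 0.10 (adjusted p = 0.012), which was 0.18 with an adjusted p of 0.153 without C57 basal replicate 2. It fell in BALB by 0.27 (adjusted p = 0.046). This missed the threshold after median-ratio scaling (adjusted p = 0.411) and without BALB IL-4 replicate 2 or 3 or any of the 3 basal libraries (log2 changes from -0.29 to -0.20, adjusted p from 0.0687 to 0.193). In NOD, PWK and SPRET, Cd40 had log2 fold changes of -0.24, 0.23 and 0.16 that did not pass the test.

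Havcr2 rose beyond 2-fold in PWK and NOD. It went from 6.51 and 5.77 TPM to 18.7, 19.0 and 19.8 TPM in PWK (log2 fold change 1.50 ± 0.14, adjusted p = 4.8e-09) and from 4.45, 4.54 and 4.83 TPM to 11.01, 8.57 and 14.2 TPM in NOD (1.10 ± 0.12, adjusted p = 1.8e-07). In C57 the gain was 0.52 ± 0.12 (adjusted p = 0.0014). In SPRET, Havcr2 fell from 55.6, 51.6 and 53.2 TPM to 41.5, 44.5 and 42.7 TPM, by 0.31 (adjusted p = 0.04). The SPRET libraries stayed the highest after IL-4, above 19.1 TPM in PWK. The fall in SPRET missed the threshold when any one of the 6 SPRET libraries was left out (adjusted p from 0.058 to 0.112).

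Icosl fell in each of the 5 strains. The log2 changes were -1.26 ± 0.13 in BALB, -0.69 in C57, -0.70 in PWK, -0.61 in SPRET and -0.56 in NOD (adjusted p between 5.3e-08 and 0.0025), and no IL-4 library overlapped with the basal libraries of its strain. In BALB, Icosl went from 3.94, 2.75 and 3.04 TPM to 1.14, 0.567 and 0.610 TPM. Cd80 rose in C57 from 4.21, 6.40 and 5.46 TPM to 8.92, 10.3 and 11.4 TPM (0.83 ± 0.12, adjusted p = 5.6e-06) and fell in SPRET from 6.59, 7.28 and 5.82 TPM to 4.24, 4.82 and 4.73 TPM (-0.43 ± 0.12, adjusted p = 0.0055). Cd86 fell in BALB, by 0.47 ± 0.09 (adjusted p = 0.00027), and differed by 0.13 or less on the log2 scale in C57, NOD and PWK. In SPRET it had 0.452 to 0.513 TPM after IL-4, a log2 change of 0.25 (adjusted p = 0.03) at levels below 1 TPM. This too missed the threshold when any one of the 6 SPRET libraries was left out (adjusted p from 0.0511 to 0.0845).

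**Figure D2:**
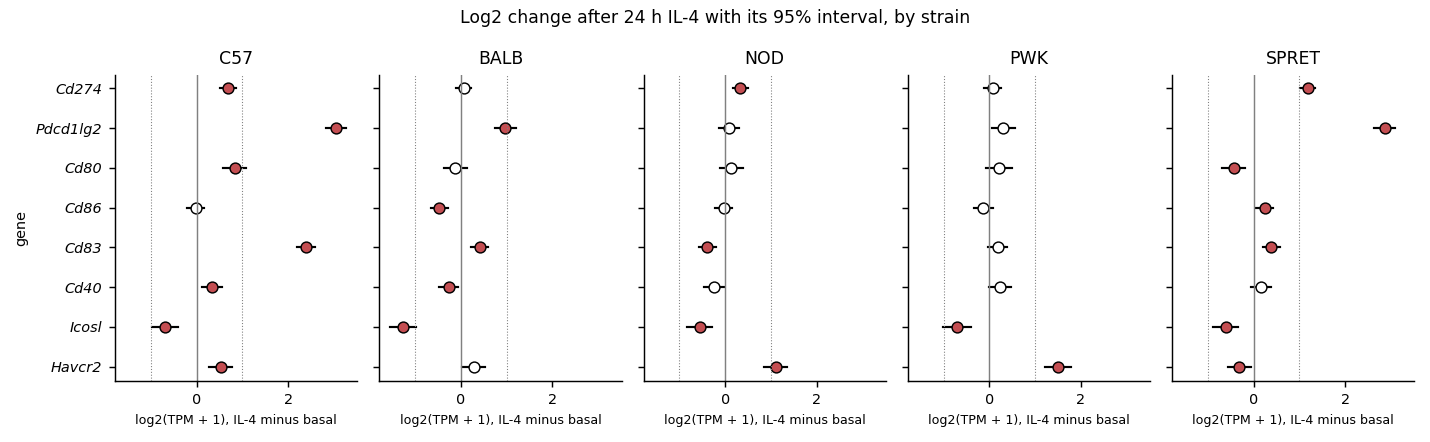
Log2 fold change after 24 hours of IL-4 (x axis, log2(TPM + 1), IL-4 minus basal) of each gene (y axis) in each strain, with 95% intervals from limma. Filled points have an adjusted p under 0.05, and dotted lines mark a 2-fold change. Icosl lies left of 0 in all 5 strains, Havcr2 is beyond 2-fold in NOD and PWK, and Pdcd1lg2 is at 3.05 in C57 and 0.09 in NOD.

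By strain, the genes called after IL-4 were Pdcd1lg2 and Cd83 in C57 (3.8% of all genes), Icosl in BALB (2.08%), Havcr2 in NOD (1.19%), Havcr2 in PWK (2.08%) and Pdcd1lg2 and Cd274 in SPRET (3.94%). Of 40 tests of a gene in a strain, 25 had an adjusted p under 0.05, 15 higher and 10 lower. The share of all genes under that threshold was lowest in PWK (24.7%) and highest in SPRET (44.4%), with 34.2% for BALB, 34.3% for NOD and 35.5% for C57. The median log2 change of the 8 genes was 0.60 in C57 and between -0.03 and 0.20 in the other strains, while that of all genes was between -0.11 and 0.12. With a pseudocount of 0.1 TPM, the 7 calls became 11. When the variation of log2(TPM + 1) among the 29 libraries was divided by source, strain held 99.3% of it for Cd40, 98.8% for Cd86, 93.1% for Cd80 and 91.5% for Cd274. For Icosl, IL-4 held 51.8% and strain 35.7%. For Pdcd1lg2 the parts were 42.4% for strain, 33.4% for IL-4 and 23.6% for their interaction, and for Cd83 the interaction held 33.0%.

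The differences between strains in the response were tested as interactions with C57. Pdcd1lg2 and Cd83 responded less than in C57 in BALB, by 2.08 ± 0.15 and 1.97 ± 0.13 on the log2 scale, and these were the genes called there (1.49% of all genes). They were also the ones called in NOD (differences of -2.96 and -2.78, with 2.47% of all genes called) and in PWK (-2.74 and -2.20, with 2.26%). In SPRET, Cd83 (-2.01 ± 0.13) and Cd80 (-1.26 ± 0.17) were called (3.45% of all genes). For Pdcd1lg2 the SPRET response differed from that of C57 by -0.19 ± 0.15 (adjusted p = 0.37), and in the time course by -0.71 ± 0.20 (adjusted p = 0.021). The latter missed the threshold without C57 24-hour replicate 1 (adjusted p = 0.0632), C57 basal replicate 2 (0.0716), SPRET 24-hour replicate 2 (0.0827) or SPRET basal replicate 2 (0.0709). For Cd83 the contrast of SPRET with C57 was 0.07 ± 0.12 there (adjusted p = 0.68). In this table Cd274 responded more in SPRET than in C57, by 0.49 ± 0.11 (adjusted p = 0.0018), whereas the same contrast was -0.45 ± 0.10 (adjusted p = 0.0058) in the time course described next. It responded less than in C57 in BALB (-0.62, adjusted p = 0.00041) and PWK (-0.62, adjusted p = 0.00062). Havcr2 responded more in PWK, by 0.98 ± 0.18 (adjusted p = 0.00038), and less in SPRET, by 0.83 ± 0.17 (adjusted p = 0.00057).

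In the time course the level of Cd274 was highest at 24 hours in C57 and at 1 hour in SPRET. Pdcd1lg2, Cd83 and Cd40 were highest at 6 hours in both strains. Like Cd274, Cd83 was up after 1 hour, by 0.75 ± 0.08 in C57 and 1.58 ± 0.08 in SPRET on the log2 scale (limma, adjusted p = 0.00012 and 5.8e-08). Pdcd1lg2 and Cd40 were up after 1 hour in C57 as well, by 0.76 and 0.62 (adjusted p = 0.0077 and 0.0044). In C57, Cd274 was at 110 and 112 TPM under basal conditions and at 198 and 201 TPM after 1 hour, a log2 fold change of 0.84 ± 0.07 (adjusted p = 1.2e-05). It held 179 and 195 TPM at 6 hours and 266 and 284 TPM at 24 hours. In SPRET it went from 61.1 and 54.3 TPM to 170 and 158 TPM at 1 hour (1.49 ± 0.07, adjusted p = 3e-08), 154 and 146 TPM at 6 hours and 111 and 98.3 TPM at 24 hours. Between 6 and 24 hours Cd274 thus rose in C57, by 0.55 (adjusted p = 9.8e-05), and fell in SPRET, by 0.52 (adjusted p = 0.00026). The change of Cd274 in SPRET from 1 to 6 hours did not pass the test (-0.12 ± 0.07, adjusted p = 0.24). The 1-hour response was larger in SPRET by 0.65 ± 0.10 (adjusted p = 0.0037) and the 24-hour response smaller by 0.45 ± 0.10 (adjusted p = 0.0058).

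Pdcd1lg2 in C57 went from 0.486 and 0.342 TPM to 1.23 and 1.57 TPM at 1 hour, 18.0 and 20.5 TPM at 6 hours and 11.9 and 11.1 TPM at 24 hours. In SPRET the values were 2.36 and 2.83 TPM, then 5.74 and 3.96 TPM, 55.3 and 55.4 TPM, and 20.0 and 17.1 TPM. SPRET was above C57 at each time, and the log2 changes at 6 hours were 3.84 ± 0.14 in C57 and 3.97 ± 0.14 in SPRET, with no difference between them that passed the test (0.13 ± 0.20, adjusted p = 0.76). From 6 to 24 hours Pdcd1lg2 fell by 0.69 in C57 and by 1.53 in SPRET (adjusted p = 0.0027 and 1.2e-05). Cd83 followed with 13.5 and 14.6, 24.3 and 24.3, 34.0 and 39.1, and 24.6 and 25.4 TPM in C57. In SPRET it was higher, at 23.6 and 22.9, 73.2 and 69.9, 113 and 98.4, and 45.6 and 41.0 TPM. The Cd83 response was larger in SPRET at 1 and 6 hours, by 0.83 ± 0.12 and 0.82 ± 0.12 (adjusted p = 0.0019 and 0.00067), but not at 24 hours (0.07 ± 0.12, adjusted p = 0.68).

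Cd40 rose and returned in C57. In C57 it went from 7.88 and 7.68 TPM to 12.2 and 12.8 TPM at 1 hour and 23.4 and 24.4 TPM at 6 hours, and was back at 8.35 and 9.05 TPM by 24 hours. The log2 change at 6 hours was 1.50 ± 0.11 (adjusted p = 9e-07), and that at 24 hours 0.14 (adjusted p = 0.33). SPRET libraries never exceeded 2.61 TPM of Cd40, reached at 6 hours, and had 0.302 and 0.389 TPM under basal conditions. The 24-hour change of Cd40 in SPRET was 0.30 (adjusted p = 0.047, and 0.299 with a pseudocount of 5 TPM). Havcr2 in C57 went from 18.1 and 17.04 TPM to 28.5 and 28.5 TPM at 6 hours (0.67 ± 0.07, adjusted p = 1.4e-05) and ended below the basal level, at 14.1 and 15.1 TPM (-0.25, adjusted p = 0.0091). That last value missed the threshold without C57 24-hour replicate 1 (adjusted p = 0.0744) or C57 basal replicate 1 (0.073). In SPRET it was at 58.6 and 60.5 TPM at first and at 36.6 and 36.1 TPM after 24 hours (-0.70 ± 0.07, adjusted p = 4e-06).

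Cd80 and Icosl fell in SPRET. Cd80 was at 17.5 and 16.5 TPM in basal SPRET and at 8.41 and 6.70 TPM in basal C57, a log2 difference of 1.08 ± 0.13 (adjusted p = 9.5e-06). By 6 hours, SPRET libraries had fallen to 9.06 and 7.36 TPM against 9.38 and 9.30 TPM in C57, and the strains no longer differed (adjusted p = 0.25). Icosl fell in SPRET from 10.6 and 11.4 TPM to 5.79 and 4.31 TPM within 1 hour (-0.9967 ± 0.17, adjusted p = 0.0015), and to 3.23 and 2.75 TPM at 24 hours (-1.59 ± 0.17). In C57, Icosl was below 1 TPM throughout. Cd86 in C57 stood at 4.91 and 4.89 TPM under basal conditions and at 2.66 and 3.56 TPM after 24 hours (-0.53 ± 0.19, adjusted p = 0.048). This missed the threshold in 5 other settings (adjusted p from 0.06 to 0.41), and without C57 24-hour replicate 1 (-0.37, adjusted p = 0.262) or either basal library (adjusted p = 0.14 and 0.141). SPRET had at most 1.14 TPM of Cd86, and 1 library was listed at 0 at both 6 and 24 hours.

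**Figure D3:**
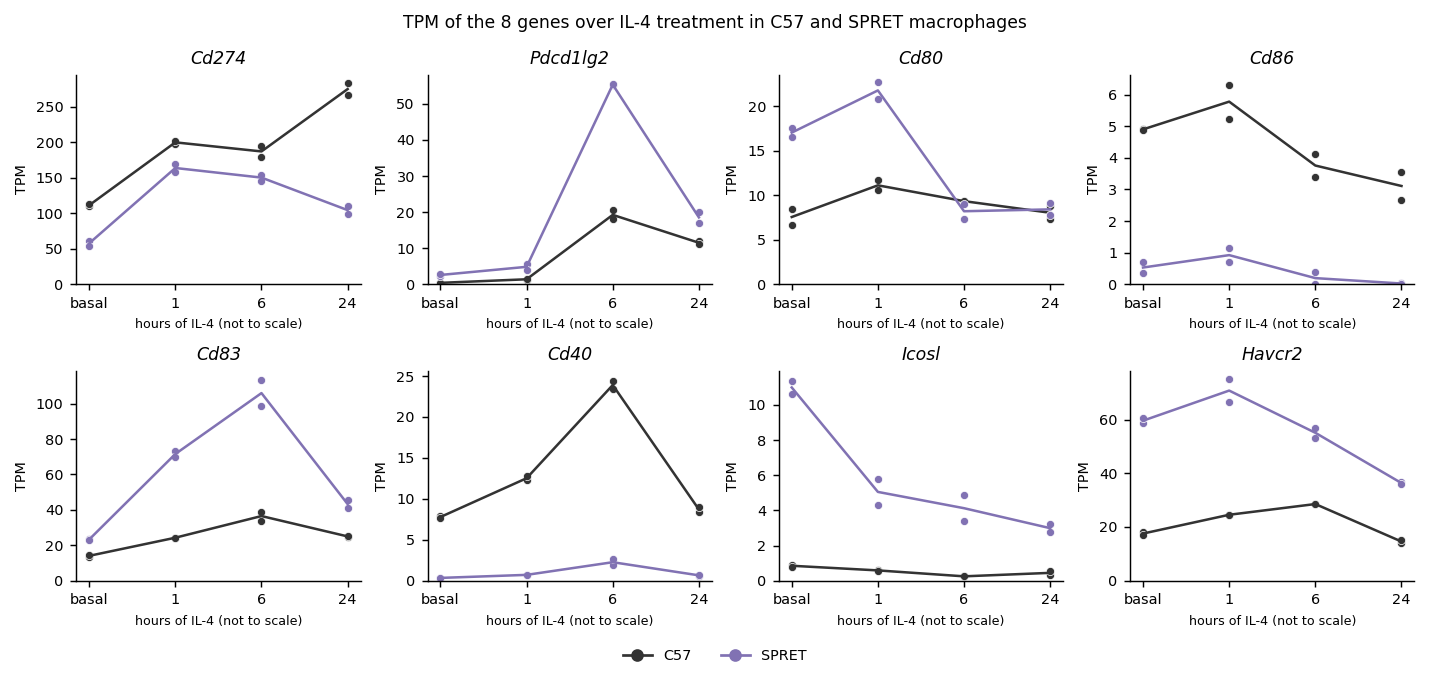
TPM (y axis, starting at 0) without IL-4 (basal) and at 1, 6 and 24 hours with it (x axis, not to scale) in C57 (black) and SPRET (violet). Points are libraries and lines join the means of 2. Pdcd1lg2, Cd83 and Cd40 peak at 6 hours, while Icosl falls in SPRET from 10.6 and 11.4 TPM.

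In C57, none of the 8 genes was called at 1 hour by limma (0.877% of all genes), although 6 had an adjusted p under 0.05, the same 6 as at an unadjusted p under 0.05, against 3.95% of all genes with an adjusted p under 0.05. Their rises were under 2-fold on the log2(TPM + 1) scale, although Pdcd1lg2 rose 3.39-fold in mean TPM. Of these, Cd80 (without C57 1-hour replicate 1 or 2 or basal replicate 2), Pdcd1lg2 and Cd40 (without C57 1-hour replicate 2 or basal replicate 2) missed the threshold when 1 library was left out, with adjusted p from 0.0525 to 0.4. Pdcd1lg2, Cd83 and Cd40 were called at 6 hours (2.13%), and Cd274 and Pdcd1lg2 at 24 hours (5.76%). In SPRET, Cd274 and Cd83 were called at 1 hour (1.89%), and Cd274, Pdcd1lg2, Cd83 and Cd40 up and Icosl down at 6 hours (4.57%). At 24 hours they were Pdcd1lg2 up and Icosl down (5.62%). As differences in response, none was called at 1 hour (0.811%), where limma gave 2 of 8 an adjusted p under 0.05 (2.32% of all genes) and 4 an unadjusted p under 0.05. Cd80 was called at 6 hours (-1.26 ± 0.18, 2.4% of all genes), and Cd80 (-1.02 ± 0.18) and Icosl (-1.23 ± 0.23) at 24 hours (6.22%). With a pseudocount of 5 TPM, none of these 3 was called. With a pseudocount of 0.1 TPM, the 24-hour difference of Icosl had an adjusted p of 0.0656.

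The same strain and time in separate experiments did not always give the same value. Each table was scaled on its own, so levels across tables are set side by side without a test. Basal Cd83 in C57 was at 4.42 TPM in the 5-strain table and 14.1 TPM in the time course, and its 24-hour changes were 2.39 ± 0.09 and 0.79 ± 0.08 on the log2 scale. Basal Icosl in SPRET had a mean of 1.41 TPM in the first and libraries at 10.6 and 11.4 TPM in the second. Cd80 in C57 changed by 0.83 ± 0.12 and 0.08 ± 0.13. Cd274 changed by 0.69 and 1.30 in C57 and by 1.18 and 0.84 in SPRET, so that the strain with the larger response differed between the tables. Of 16 pairs of gene and strain, 2 had opposite signs with an adjusted p under 0.05 in both tables, which were Havcr2 in C57 (0.52 and -0.25) and Cd86 in SPRET (0.25 and -0.57). The -0.57 (adjusted p = 0.037) missed the threshold without SPRET time-course 24-hour replicate 1 (adjusted p = 0.0923) or 2 (0.142) or basal replicate 1 (0.217). Pdcd1lg2 in C57 was close in both tables, at 3.05 ± 0.11 and 3.15 ± 0.14, as was the lack of Cd40 and Cd86 in SPRET.

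Egr2, a transcription factor induced by IL-4, was reduced in every Egr2MKO library. It was at 23.6 and 21.3 TPM in basal Egr2WT and at 0.859 and 0.854 TPM in basal Egr2MKO. After 24 hours it reached 101 and 99.5 TPM in Egr2WT and 4.72 and 7.05 TPM in Egr2MKO, and the log2 difference at the 4 times was between -3.66 and -4.18. The TPM counts all exons of the gene, so transcripts without the deleted part may still be counted. The PD-1 ligands rose in both genotypes. Pdcd1lg2 in Egr2WT went from 0.361 and 0.413 TPM to 20.8 and 21.1 TPM at 6 hours and 15.1 and 11.5 TPM at 24 hours. In Egr2MKO it went from 0.328 and 0.255 TPM to 19.8 and 19.7 TPM and to 18.4 and 15.1 TPM. The libraries overlapped at 24 hours, and the difference of 0.32 ± 0.13 did not pass the test (adjusted p = 0.085). Cd274 was at 158 and 164 TPM at 6 hours and 156 and 152 TPM at 24 hours in Egr2WT. In Egr2MKO, Cd274 was higher, at 199.5 and 208 TPM and at 197 and 198 TPM, after starting from 77.7 and 72.7 TPM against 75.0 and 81.5 TPM. The response at 24 hours was larger in Egr2MKO by 0.41 ± 0.07 (adjusted p = 0.0024), and that at 6 hours by 0.39 ± 0.07 (adjusted p = 0.023). The latter missed the threshold with the replicate number as a block (adjusted p = 0.0713) and without Egr2WT 6-hour replicate 1, Egr2WT basal replicate 2, Egr2MKO 6-hour replicate 2 or Egr2MKO basal replicate 2 (adjusted p from 0.0716 to 0.114).

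Cd86 and Cd40 were the members called between the genotypes. Cd86 in Egr2WT was at 5.72 and 5.99 TPM under basal conditions, 5.60 and 3.65 TPM at 6 hours and 2.26 and 3.65 TPM at 24 hours. In Egr2MKO it was at 7.28 and 5.80 TPM, then 12.5 and 13.1 TPM at 6 hours and 7.54 and 8.41 TPM at 24 hours. The genotypes did not overlap at 6 and 24 hours, with log2 differences of 1.32 ± 0.19 (adjusted p = 0.00039) and 1.203 ± 0.19 (adjusted p = 0.00032). In a model of the groups compared alone, the 6-hour adjusted p was 0.0893. The 24-hour response of Cd86 was larger by 1.07 ± 0.26 in Egr2MKO (adjusted p = 0.019). This missed the threshold without Egr2WT 24-hour replicate 1 (0.82, adjusted p = 0.0768), Egr2WT basal replicate 2 (1.04, 0.0594), Egr2MKO 24-hour replicate 2 (1.002, 0.0663) or Egr2MKO basal replicate 2 (0.93, 0.0866). Cd40 was higher in Egr2MKO at all 4 times, by 0.61 ± 0.11 under basal conditions (adjusted p = 0.0033), with 4.58 and 5.15 TPM against 2.70 and 2.96 TPM. At 24 hours the libraries held 10.5 and 13.3 TPM in Egr2MKO and 5.11 and 5.44 TPM in Egr2WT (1.03 ± 0.11, adjusted p = 1.8e-05). At 1 hour the Cd40 difference was 0.50 (adjusted p = 0.012, and from 0.055 to 0.0874 without any 1 of its 4 libraries). The Cd40 response itself did not differ at an adjusted p under 0.05 (0.42 ± 0.16 at 24 hours, adjusted p = 0.11). Within Egr2WT, Cd40 was above its basal level at 24 hours (0.71 ± 0.11, adjusted p = 0.00038).

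Among the rest, Icosl at 24 hours was at 1.79 and 3.01 TPM in Egr2MKO and 1.17 and 1.08 TPM in Egr2WT (0.65 ± 0.20, adjusted p = 0.026). After median-ratio scaling the adjusted p was 0.0521, and without Egr2WT 24-hour replicate 1 or 2 or Egr2MKO 24-hour replicate 2 it was 0.0802, 0.105 and 0.215 (the last with a difference of 0.39). Cd80, Cd83 and Havcr2 did not differ between genotypes at any of the 4 times at an adjusted p under 0.05. Their 24-hour differences on the log2 scale were -0.25 ± 0.16, -0.13 ± 0.11 and -0.20 ± 0.10. Cd83 in Egr2WT peaked at 49.3 and 51.8 TPM at 6 hours and in Egr2MKO at 39.2 and 44.1 TPM.

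**Figure D4:**
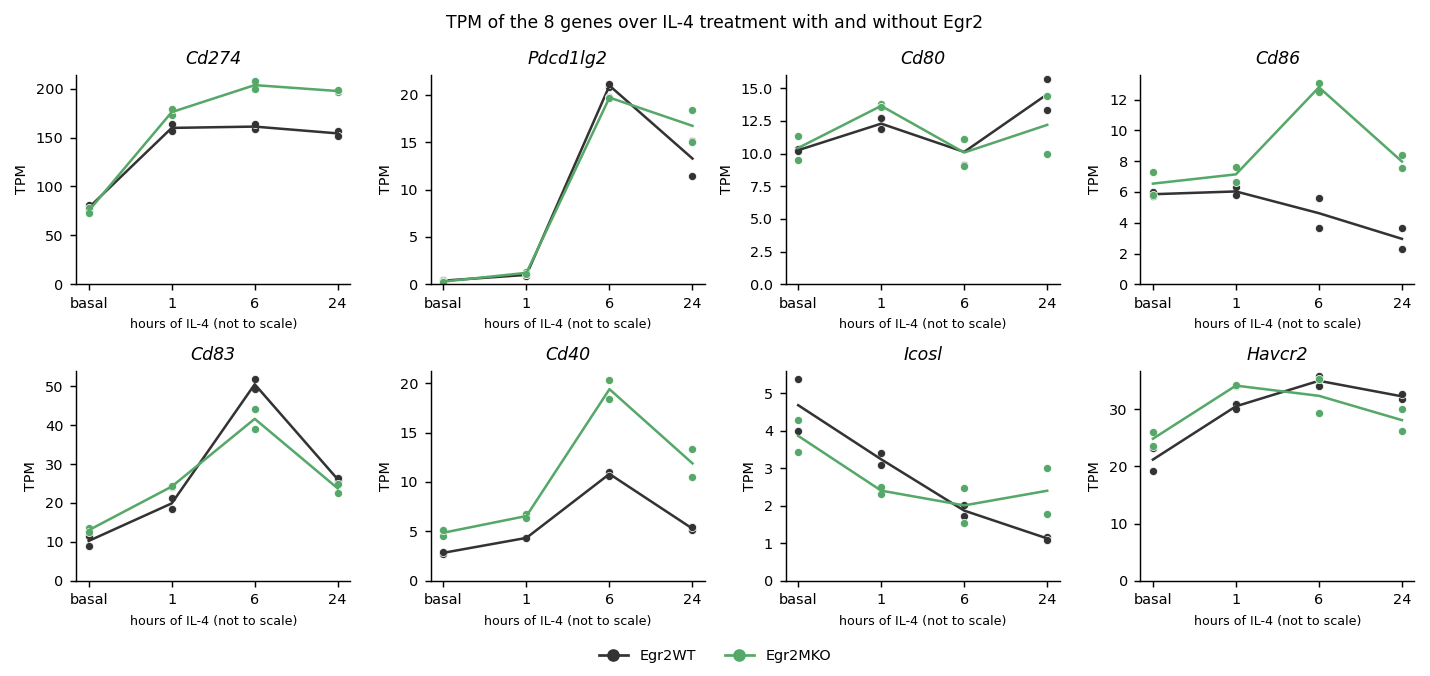
TPM (y axis, starting at 0) without IL-4 (basal) and at 1, 6 and 24 hours with it (x axis, not to scale) in Egr2WT (black) and Egr2MKO (green). Points are libraries and lines join the means of 2. Cd86 and Cd40 lie higher in Egr2MKO at 6 and 24 hours, while the courses of Pdcd1lg2 run close together up to 6 hours.

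Under basal conditions none of the 8 genes was called between the genotypes by limma (0.853% of all genes) and none after 1 hour (1.06%), with Cd40 at an adjusted p under 0.05 both times (11.5% and 11.4% of all genes) and 2 and 3 of the 8 at an unadjusted p under 0.05. Cd86 was called after 6 hours (2.3%), and Cd86 and Cd40 after 24 hours (4.55%). For responses, no member was called at 1 hour (0.00828% of all genes) or 6 hours (0.207%), with 1 and 4 of the 8 at an unadjusted p under 0.05, and Cd86 was called at 24 hours (1.9%). The median log2 difference of all genes at 24 hours was 0.12. Quantile normalization or median-ratio scaling left 2 of these 4 calls, and a pseudocount of 5 TPM left none. Within Egr2WT, IL-4 called Cd274 after 1 hour (0.778%), Cd274, Pdcd1lg2, Cd83 and Cd40 after 6 hours (2.86%), and Pdcd1lg2 and Cd83 up and Icosl down after 24 hours (4.35%). In Egr2MKO the genes were Cd274 (0.902%), the same 4 as in Egr2WT (3.7%), and Cd274, Pdcd1lg2 and Cd40 (4.83%).

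In F1 cells both alleles share one nucleus, so a difference between alleles is measured in the same cells. Values were assigned to alleles from reads that overlap strain variants. In C57 x SPRET cells, Cd274 under basal conditions was at 50.8 and 53.6 for the C57 allele and 32.1 and 30.0 for the SPRET allele, in TPM of each allele column. The C57 allele was higher in both libraries, by 0.73 ± 0.11 on the log2 scale (limma, adjusted p = 0.019). The parental strains differed by 2.01 ± 0.08 in the same direction. Havcr2 was at 40.8 and 37.8 for the C57 allele and 81.2 and 74.3 for the SPRET allele, a log2 ratio of -0.97 ± 0.16 (adjusted p = 0.025) against -2.12 ± 0.12 between the parents. Cd86 had a ratio of 0.61 ± 0.10 (adjusted p = 0.025) against 2.59 ± 0.09. For Cd40, with a parental difference of 3.06 ± 0.10, the F1 alleles held 0.203 and 0.089 for C57 and 0.108 and 0.095 for SPRET. Both alleles were thus near 0 under basal conditions. Without either basal library, the ratios of Cd274 (0.65 and 0.82), Cd86 (0.56 and 0.65) and Havcr2 (-0.96 and -0.98) kept their sign, and their adjusted p was between 0.176 and 0.247.

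After IL-4, Cd40 was at 1.73 and 1.17 for the C57 allele and 0.165 and 0.487 for the SPRET allele (0.89 ± 0.18, adjusted p = 0.049). This missed the threshold at a pseudocount of 10 (0.15, adjusted p = 0.127), without IL-4 replicate 1 (0.55, 0.0788) and without either basal library (0.109 and 0.112). Pdcd1lg2 went from 0.131 and 0.092 to 2.51 and 2.31 for the C57 allele, and from 0.140 and 0.147 to 2.54 and 1.66 for that of SPRET. Its log2 ratio after IL-4 was 0.15 ± 0.11 (adjusted p = 0.39). For Cd274 the C57 allele held 46.96 and 53.05 after IL-4, overlapping its basal values. The SPRET allele held 36.02 and 33.73, above its basal 32.1 and 30.0. Cd83 was lower after IL-4 on both alleles. It went from 31.3 and 33.4 to 17.4 and 19.2 for C57, and from 49.2 and 55.9 to 34.8 and 23.3 for SPRET. Cd274 and Cd83 rose in both parents, whereas Icosl fell on both alleles and in both parents. Changes of single alleles with IL-4 were not tested. Cd83, for which the C57 parent exceeded the SPRET parent by 1.48 ± 0.09 after IL-4, had a mean allele ratio of -0.61 ± 0.19 (adjusted p = 0.11). Both F1 libraries had the SPRET allele above that of C57, opposite to these parents and in the direction of the time course, where SPRET exceeded C57 at 24 hours by 0.77 ± 0.08 (adjusted p = 4.8e-06).

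**Figure D5:**
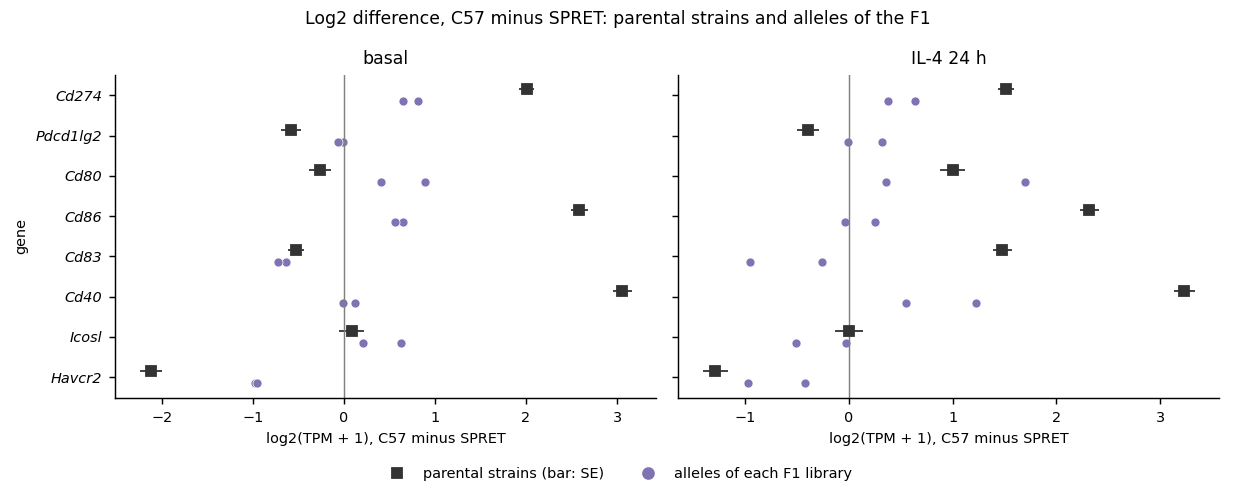
Log2 difference of C57 minus SPRET (x axis, log2(TPM + 1)) for each gene (y axis), without IL-4 and at 24 hours with it. Squares are the parental strains with their SE, and circles are the allele ratios of each F1 library. The basal circles of Cd274, Cd86 and Havcr2 lie between 0 and the square, at 0.73, 0.61 and -0.97 on average, and those of Cd40 near 0.

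No gene among the 8 was called in the F1 C57 x SPRET by limma, with 6.92% of all genes called under basal conditions, 4.36% after IL-4 and 0% for the change of the ratio with IL-4. At an unadjusted p under 0.05, 4 of 8 differed under basal conditions, 5 after IL-4 and 3 in the change of the ratio. Of all 12259 genes, 4311, 3864 and 1014 did so. Without IL-4 replicate 2, 2 genes were called. In F1 C57 x NOD cells, Cd274, Pdcd1lg2, Cd83 and Icosl were listed at 0 for both alleles in all 4 libraries, and Cd86 in all but 1 value. Between 78.9% and 83.6% of all genes were at 0 in these columns, and Cd274 was at 70.2 TPM or more in every C57 and NOD library of the 5-strain table, so a value of 0 here may be a failed allele estimate and is not read as absence. Cd40 was listed at 0 for the NOD allele after IL-4 and at 49.2 and 4.82 for C57. Cd80 and Havcr2 could be tested, and neither was called (0% of all genes for basal, IL-4 and the change of the ratio). The log2 ratios of Havcr2 were -0.75 ± 0.26 under basal conditions (adjusted p = 0.57) and -0.34 ± 0.26 after IL-4. At an unadjusted p under 0.05, limma gave neither gene and 293 of 3231 genes under basal conditions.

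Genes with the most similar pattern over the 10 group means were listed for each gene as a description. For Cd40 they were Oasl1 (r = 0.99), Uap1l1 and Eaf1, with r between 0.92 and 0.95 over the 8 groups of the time course. For Cd86 they were Phf11d (r = 0.99, and 0.99 in the time course), Fbxo42 and Isg20, and for Cd274 Ifrd1 (r = 0.98, and 0.71 in the time course), Fam46c and Mrpl32. For Pdcd1lg2 they were Snx8, Flt1 and Tarbp2, with r from 0.96 to 0.97 and from 0.65 to 0.80 in the time course. For Cd80 the genes were Gpr65, Rhoj and 1810011H11Rik, and for Havcr2 Sac3d1, Sars2 and Atg4d. Their r was 0.95 to 0.98, and between -0.53 and 0.72 in the time course. For Cd83 (Egr1, Mir6939 and Tex264) and Icosl (Mprip, Slx4ip and Anxa5) the r was between 0.86 and 0.91. In the time course it was between -0.56 (Anxa5) and 0.93 (Mprip). The points share strains and libraries, and the 3 genes named are those with the highest r of all genes tested, which makes r high.

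Among other genes of these pathways, the regulators of the PD-1 ligands were led by Irf4, a factor induced by IL-4. After IL-4 Irf4 was highest in BALB, which went from 3.22 ± 0.557 to 8.08 ± 0.804 TPM, and it rose in NOD from 3.18 ± 0.311 to 5.70 ± 0.321 TPM, with log2 changes of 1.11 and 0.68. It rose in C57 from 0.70 ± 0.12 to 5.30 ± 0.211 TPM and in SPRET from 0.0430 ± 0.0145 to 4.96 ± 0.378 TPM, with changes of 1.89 and 2.51. In PWK it reached 0.953 ± 0.227 TPM. Of the 13 regulators, all tested, 3 of 65 tests over the 5 strains were called higher and none lower, and the median log2 change was between -0.08 and 0.13 by strain. Of all genes, 0.731% (NOD) to 2.32% (SPRET) were called higher by strain and 0.462% (NOD) to 1.62% (SPRET) lower. Jak2, a kinase of the interferon-gamma receptor, was highest in SPRET, at 64.0 ± 0.427 TPM among the basal groups and 96.7 ± 2.79 TPM among those given IL-4. Il4ra, the IL-4 receptor, was at 78.7 ± 2.38 TPM in basal SPRET and 35.2 ± 3.09 TPM in basal C57. In Egr2MKO at 24 hours Irf4 was lower (-1.32) and Il4ra higher (1.21).

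Of 7 ligands of the TNF family, 4 were tested in the 5 strains, and 3 of 20 tests were called, all lower after IL-4. For this list and those that follow, the shares of all genes by strain were 0.462% to 1.62% called lower and 0.731% to 2.32% called higher. Tnfsf4 (OX40 ligand) fell in C57 from 5.87 ± 0.379 to 0.658 ± 0.160 TPM, and it was at 0.212 ± 0.0475 TPM in basal SPRET. Tnfsf9 (4-1BB ligand) fell in NOD (-1.03) and SPRET (-1.35), and Tnfsf15 was at 1.38 TPM or less in all groups. Of 12 other coinhibitory ligands, 10 were tested, with 2 of 50 tests called higher and 2 lower. Lgals3 rose in all 5 strains and was called in BALB (1.16) and SPRET (1.58), Cd276 (B7-H3) was at 76.0 ± 1.26 TPM in basal SPRET against 9.61 ± 0.491 TPM in C57, and Cd200 was highest in PWK at 127 TPM. Tnfrsf14 fell in C57 (-1.09), where its basal libraries were spread over 19.7 ± 16.0 TPM. For 12 genes of CD40 and NF-kB signalling, 1 of 60 tests was called higher (Traf5 in SPRET, 2.10) and 2 lower (Nfkbia in NOD, at -1.002, and Traf1 in SPRET, at -1.30). Basal Traf1 was at 127 ± 3.76 TPM in NOD, 113 TPM in PWK and 14.4 ± 0.904 TPM in SPRET, and its likeness to Cd40 was not tested. Rel rose after 1 hour of IL-4 in C57 (1.29) and SPRET (1.09). Of 9 receptors of T cells, only Cd28 passed the filter in the 5 strains, at 6.30 ± 0.483 TPM in basal C57 and 0.0107 TPM in SPRET.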

How the data were processed

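RNA was measured by poly(A) RNA-seq in BMDMs of 69 samples. Per the paper's methods and the labels, the authors aligned reads with STAR to the genome of each strain, shifted positions to mm10 with MMARGE and counted with HOMER. The authors deposited TPM (transcript abundance scaled to library size and transcript length) per gene and library. For F1 cells, they assigned reads to alleles from those overlapping variants, and each allele column is scaled on its own. The tables also hold the authors' DESeq2 fold changes and p-values, which were not used, nor was the table of human macrophages. From the deposited TPM, log2(TPM + 1) was fitted in limma 3.58.1 (R 4.3.3; group means, trended variance, all groups of a table), for genes with at least 1 TPM in 2 libraries, with Benjamini-Hochberg adjustment over all genes of a comparison. Called means an adjusted p under 0.05 and a change beyond 2-fold. Allele log2 ratios were fitted likewise, for genes above 0 in all allele columns. The script was tested on simulated data. Genes most like a member were the 3 with the highest Pearson r over group means, and from each list at most 4 genes were named, by their number of calls, then by the larger change. A gene that this rule names is not reported here. Members and lists were chosen with earlier results of these data known. Alternatives were other pseudocounts, filters, scalings, models of the groups compared alone, a replicate block and leaving out each library. Figures were drawn with matplotlib 3.10.9.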

Additional observations from a re-analysis of the deposited data

Results flagged for a closer look

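The results below differed between groups by a test of the difference itself (limma, log2 scale, adjusted p under 0.05 and beyond 2-fold). The 24-hour IL-4 response of Pdcd1lg2 differed from that of C57 by -2.08 in BALB, -2.96 in NOD and -2.74 in PWK. For Cd83 the differences from C57 were -2.78 for NOD, -2.20 for PWK, -2.01 for SPRET and -1.97 for BALB. All 4 share the C57 response, which was 2.39 in this table and 0.79 in the time course, where the difference of SPRET was 0.07 (adjusted p = 0.68). For Cd80 the difference of SPRET from C57 was -1.26 at 24 hours in the table of 5 strains. In the time course the Cd80 response of SPRET differed from that of C57 by -1.26 at 6 hours and -1.02 at 24 hours, and the Icosl response by -1.23 at 24 hours. With a pseudocount of 0.1 TPM the Icosl difference was -1.01 (limma, adjusted p = 0.0656), and Icosl in C57 was below 1 TPM there. In the table of 5 strains, Icosl changed by -0.69 in C57 and -0.61 in SPRET. The 24-hour response of Cd86 was larger in Egr2MKO than in Egr2WT by 1.07.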

How the results depend on the processing

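Of 310 single values, 168 had an adjusted p under 0.05 as reported. Of 4152 recomputed values, 3893 stayed on their side of that threshold. Of the rest, 197 lost significance (110 of these on leaving out a library), 60 gained it and 2 were reversed. Direction was compared only where the reported or the recomputed adjusted p was under 0.05. A value above it both times could change sign and count among the 3893. The reversed values were the 6-hour response difference of Cd40 between SPRET and C57, 0.79 with a pseudocount of 0.1 TPM (adjusted p = 0.048, against -0.23 as reported), and the 24-hour difference of Pdcd1lg2, 0.021 with a pseudocount of 5 TPM (adjusted p = 0.92, against -0.71 as reported). The cause was not tested. The 7 calls after 24 hours of IL-4 became 11 with a pseudocount of 0.1 TPM, the 3 time-course response differences became 0 with a pseudocount of 5 TPM, and the 4 differences between Egr2MKO and Egr2WT became 0 with that pseudocount, 2 with median-ratio scaling and 2 with quantile normalization. Leaving out 1 library gave 6 to 8 calls after 24 hours of IL-4, 14 to 16 for basal levels against C57, 8 to 10 for responses against C57, 14 to 15 and 2 to 3 in the time course, 14 to 19 for IL-4 in the Egr2 table, 2 to 5 between genotypes, 0 to 2 in F1 C57 x SPRET and 0 in F1 C57 x NOD. The 2 between genotypes came without Egr2WT 24-hour replicate 1 or Egr2MKO 24-hour replicate 2. A group left with 1 library was assumed to vary like the others. The deviations of same-numbered libraries from their group means had correlations from -0.143 to 0.333. Those over 0.1 were 2 of 14 pairs in the 5-strain table, 6 of 24 in the time course and 0 of 24 in the Egr2 table. In the time course and the Egr2 table, the 2 libraries of a group have mirrored deviations, so each correlation is counted 2 times. Whether the numbers mark shared animals or batches cannot be told from these values. With the replicate number as a block, the counts stayed at 7, 15, 8, 14, 3, 16 and 4, and 3 single values missed the threshold. Depth limits values below 1 TPM, such as Cd86 in SPRET.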
